A study of Mus musculus with 8 samples.

Results

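Glucocorticoid response genes were followed as a group of 8 genes, namely the glucocorticoid receptor Nr3c1, the steroid-activating enzyme Hsd11b1 and the receptor targets Fkbp5, Tsc22d3, Zbtb16, Sgk1, Errfi1 and Ddit4. They were found by exact match of the gene name in the array files, which gave 9 probes of 55660, and all 8 genes were among the 24437 of 36085 gene names that passed the filter on dim probes. The RNA came from whole lungs of C57BL/6 mice 12 h after lipopolysaccharide (LPS), the bacterial outer-membrane component that injures the lung through TLR4. One group was wildtype and the other a lung-specific knockout of GGPPS1 (mouse gene Ggps1), the enzyme that makes geranylgeranyl diphosphate for the prenylation of small GTPases, with 4 mice in each group. The strain, the agent and the time were shared by both groups. No source used here names the driver of the deletion. Lungs without LPS were not analysed here, and every comparison is between genotypes after LPS.

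Glucocorticoids cross the cell membrane and bind the receptor NR3C1, which is held in the cytoplasm by HSP90 and immunophilins such as FKBP4 and FKBP5. The bound receptor moves to the nucleus, binds DNA as a dimer and induces genes that damp inflammation and alter metabolism. In the lung, adrenal glucocorticoid restrains the response to LPS, and the enzyme HSD11B1 raises the local supply by turning the inert 11-keto steroid (11-dehydrocorticosterone in mice) into corticosterone.

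The receptor's DNA element is a palindrome, and among the members a full match lay in a start-site window of Sgk1. RefSeq start-site windows on GRCm38.p6 were matched for 6 of the 8 members, 14 windows in all, each from 250 bases before to 50 after an annotated start. The 250 bases before 1 of the Sgk1 starts (chr10:21993640-21993889, plus strand) are shown because they hold the palindrome, in capitals.

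Sgk1 upstream window: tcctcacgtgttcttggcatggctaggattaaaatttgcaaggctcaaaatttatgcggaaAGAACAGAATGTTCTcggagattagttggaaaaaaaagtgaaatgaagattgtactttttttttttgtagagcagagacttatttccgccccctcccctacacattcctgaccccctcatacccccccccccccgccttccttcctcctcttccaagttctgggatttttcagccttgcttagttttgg

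The capitals, chr10:21993701-21993715, match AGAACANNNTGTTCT, which reads the same on both strands. This motif occurs in 3 of the 32851 mouse windows of the same length (0.00913%), and the shorter form GNACANNNTGTNC, which it contains, in 156 (0.475%). The members' other windows held neither form, which says only that these letters are not in those windows.

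None of the 8 members passed the test between the genotypes, and for each of them the knockout and wild-type values overlapped. Levels are log2 processed signal minus the array's own 75th percentile, differences are knockout minus wild-type, and adjusted p-values are from limma with Benjamini-Hochberg adjustment over all 24437 genes. Over all genes, 15 passed an adjusted p of 0.05 (0.0614%; 0.0327% higher and 0.0286% lower in knockout), so 0 of 8 is near the background. At an unadjusted p under 0.05 there were 2 members, both higher (Zbtb16 and Ddit4), where 10.1% of all genes were higher and 13.5% lower. The groups did not overlap in 15.3% of all genes (6.08% higher and 9.26% lower) and in 0 of the 8 members. The median difference of the members was 0.08, and that of all genes tested was -0.03. In bulk lung, fewer cells of a type and less RNA per cell cannot be told apart.

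The arrays gave 58.1% to 65.3% of spots well above background, 63.6% ± 1.8 on wild-type and 59.8% ± 1.5 on knockout arrays (SD, 4 arrays each). All 8 lay on 1 slide, each genotype in a row of its own, so slide position and genotype cannot be told apart. The surfactant gene Sftpc, which defines alveolar type 2 cells, was high on every array at 8.92 to 9.29. Ggps1 read 1.32 ± 0.070 in wild-type against 1.26 ± 0.044 in knockout mice (SD, 4 mice each; limma adjusted p = 0.608). Since the deleted part is not given, its probe does not check the labels. Cardiac muscle markers differed widely between samples of 1 group, as described beside Hsd11b1.

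**Figure D1:**
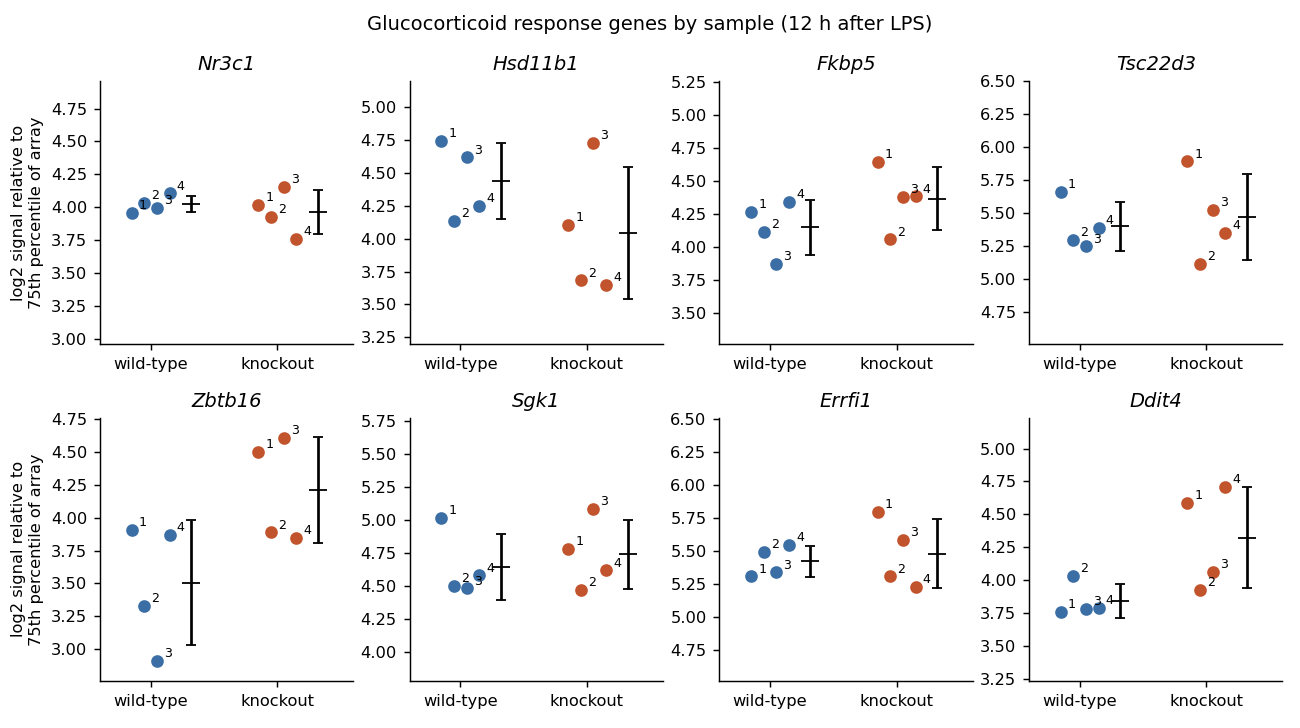
Log2 signal of each member minus the array's 75th percentile (y axis, a span of 2 log2 units in every panel) in the 4 wild-type (blue) and 4 knockout (orange) lungs. Small digits are replicate numbers, and the bars give the mean and SD of each group. The groups overlap in every panel, the group means differ most in Zbtb16 and Ddit4, and Nr3c1 varies least.

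The receptor itself showed no detectable difference. The brighter Nr3c1 probe (mm9 chromosome 18, 39571641 to 39571700, minus strand) read 3.96, 4.04, 4.00 and 4.11 in the wild-type lungs, in the order of their replicate numbers, against 4.02, 3.93, 4.16 and 3.76 in the knockout lungs. The wild-type values lie inside the knockout range. The difference was -0.06 ± 0.096 (SE; limma adjusted p = 0.741), with a 95% interval of -0.28 to 0.16. Its sign was positive with quantile normalization (0.0048), so no direction is given. A dimmer probe, 2482 bases away in the same transcript, read -1.08 ± 0.23 in wild-type against -0.94 ± 0.20 in knockout mice (SD, 4 mice each) and differed by 0.14 ± 0.14 (SE; limma over all probes, adjusted p = 0.59). Over all 8 samples the brighter probe had an SD of 0.12, larger than that of only 18.6% of the genes tested.

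Hsd11b1, which feeds the receptor, had the lowest difference of the 8. Its probe (mm9 chromosome 1, 195048169 to 195048228, minus strand) read 4.75, 4.14, 4.62 and 4.25 in the wild-type and 4.10, 3.68, 4.73 and 3.65 in the knockout lungs, in replicate order. Of the knockout lungs, 3 were below every wild-type lung, while knockout replicate 3 was among the highest of all. The difference of -0.40 ± 0.26 did not pass (SE; limma adjusted p = 0.373; 95% interval -0.99 to 0.20). This probe is printed in 10 spots per array, of which 9 or 10 were usable, and the SD between the spots of an array was 0.018 to 0.038. The highest and the lowest lung differed 2.14-fold.

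Hsd11b1 went with some of the tissue marker means over the samples. The mean of 8 alveolar type 1 cell markers, the flat cells that line the alveoli, ran from 3.43 to 4.11 in wild-type and from 2.44 to 3.65 in knockout lungs, with all 8 markers lower in the knockout mean (exact permutation p = 0.0857). Over the 8 samples Hsd11b1 correlated with it at Pearson's r = 0.94 (exact permutation p = 0.000248) and Spearman's rho = 0.98 (exact permutation p = 0.000397). Among 112 relations of the 8 members to 14 marker lists, it was the 1 relation that passed after Benjamini-Hochberg adjustment (adjusted exact p = 0.0278 for r and 0.0444 for rho). Without the pair of samples farthest from the marker median, knockout replicates 2 and 4, r was 0.85, and with each group centred on its own mean it was 0.94.

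Cardiac muscle markers, of heart and the muscle sleeves of pulmonary veins, ran the other way. Their mean over 8 of 8 listed genes was -0.04, 4.56, 1.44 and 1.48 in the wild-type lungs against 2.79, 4.95, 1.72 and 4.83 in the knockout lungs, in replicate order. The contractile gene Myh6 ran from 1.97 to 7.57. Hsd11b1 correlated with this mean at r = -0.89 and rho = -0.88 (exact permutation p = 0.00662 and 0.00724, adjusted exact p = 0.158 and 0.339), and at r = -0.75 without knockout replicates 2 and 4. With the cardiac mean as a covariate, the Hsd11b1 difference was -0.06 ± 0.17 (SE; limma adjusted p = 0.846). Without knockout replicate 3 it was -0.63 ± 0.19 (SE; limma adjusted p = 0.125).

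**Figure D2:**
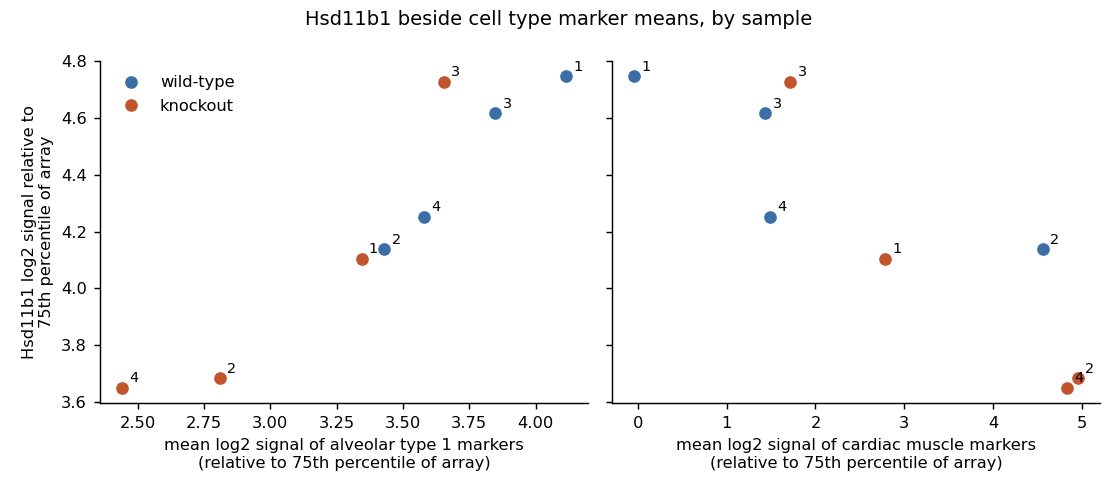
Hsd11b1 log2 signal (y axis) against the mean log2 signal of alveolar type 1 markers (left x axis) and of cardiac muscle markers (right x axis) in the 8 lungs, all minus the array's 75th percentile. Digits are replicate numbers. Hsd11b1 is high where alveolar type 1 markers are high and cardiac markers low, in both genotypes.

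Fkbp5, whose protein binds the receptor complex and lowers its affinity for hormone, is itself induced by the receptor and so closes a feedback loop. The Fkbp5 probe (mm9 chromosome 17, 28536060 to 28536119, minus strand) read 4.27, 4.12, 3.87 and 4.34 in wild-type and 4.65, 4.06, 4.38 and 4.39 in knockout lungs. Of the knockout lungs, 3 lay above every wild-type lung, and knockout replicate 2 lay among the wild-type values. The difference of 0.22 ± 0.15 did not pass (SE; limma adjusted p = 0.395; 95% interval -0.13 to 0.56).

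Zbtb16 had the highest difference of the 8 members. It encodes PLZF, a zinc finger repressor that steroid hormones induce and that lymphocytes of the innate-like lineages also use. The Zbtb16 probe (mm9 chromosome 9, 48462419 to 48462478, minus strand) read 3.91, 3.33, 2.91 and 3.87 in wild-type and 4.50, 3.89, 4.61 and 3.85 in knockout lungs. Knockout replicates 1 and 3 stood above the rest, and replicates 2 and 4 were level with wild-type replicates 1 and 4. The difference of 0.71 ± 0.28, 1.63-fold, did not pass (SE; limma adjusted p = 0.178; 95% interval 0.07 to 1.34, not adjusted for the number of genes). With the cardiac covariate the difference was 0.98 ± 0.26 (SE; limma adjusted p = 0.0646). Its SD over the 8 samples was above that of 89.2% of the genes tested. Lymphocyte markers had a mean of -0.84 to -0.55 in wild-type and -1.79 to -0.95 in knockout lungs, with 7 of 7 genes lower in the knockout mean. Over the 8 samples Zbtb16 and this mean had r = -0.48 and rho = -0.33 (exact permutation p = 0.227 and 0.428, adjusted exact p = 0.589 and 0.656). Without knockout replicates 1 and 4 this r was -0.51. With each group centred on its own mean it turned positive, at 0.21, so no direction is given. The part of lymphocytes in the Zbtb16 values was not tested further.

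Ddit4 encodes REDD1, an inhibitor of mTORC1 that glucocorticoid, hypoxia and other stresses induce. The Ddit4 probe (mm9 chromosome 10, 59412486 to 59412545, minus strand) read 3.76, 4.04, 3.78 and 3.79 in wild-type and 4.59, 3.93, 4.07 and 4.71 in knockout lungs. Knockout replicates 1 and 4 were well above all wild-type lungs, replicate 3 just above wild-type replicate 2, and replicate 2 below it. The difference of 0.48 ± 0.18, 1.40-fold, did not pass (SE; limma adjusted p = 0.173; 95% interval 0.06 to 0.91, not adjusted for the number of genes). Knockout replicate 1 was high for both Ddit4 and Zbtb16. The other high knockout lung was replicate 4 for Ddit4 and replicate 3 for Zbtb16.

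For Tsc22d3, Sgk1 and Errfi1 the differences were smaller than the spread between replicates. Tsc22d3 encodes GILZ, a leucine zipper protein that binds NF-κB and AP-1. The Tsc22d3 probe (mm9 chromosome X, 137074094 to 137074153, minus strand) read 5.66, 5.30, 5.25 and 5.39 in wild-type and 5.89, 5.11, 5.52 and 5.35 in knockout lungs. It differed by 0.07 ± 0.17 (SE; limma adjusted p = 0.83; 95% interval -0.33 to 0.47), and by -0.07 without knockout replicate 1, its highest sample. Sgk1, a kinase that raises epithelial sodium channel activity and so the clearance of alveolar fluid, is the gene whose window is shown above. Its probe (mm9 chromosome 10, 21719507 to 21719566, plus strand) read 5.02, 4.50, 4.48 and 4.58 in wild-type and 4.78, 4.47, 5.09 and 4.62 in knockout lungs. The difference was 0.09 ± 0.17 (SE; limma adjusted p = 0.761; 95% interval -0.29 to 0.48), and -0.02 without knockout replicate 3. The highest wild-type value, in replicate 1, was close to the highest knockout value, in replicate 3.

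Errfi1 encodes MIG6, which binds and inhibits the EGF receptor kinase. The Errfi1 probe (mm9 chromosome 4, 150242886 to 150242945, plus strand) read 5.31, 5.49, 5.34 and 5.55 in wild-type and 5.80, 5.31, 5.59 and 5.23 in knockout lungs. The knockout values lay on both sides of the wild-type range. The difference was 0.06 ± 0.14 (SE; limma adjusted p = 0.825; 95% interval -0.26 to 0.37), and it was -0.05 without knockout replicate 1. For Errfi1, Tsc22d3 and Sgk1 the intervals hold changes of up to 0.37, 0.47 and 0.48 upward, so the data do not show that these genes were equal.

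**Figure D3:**
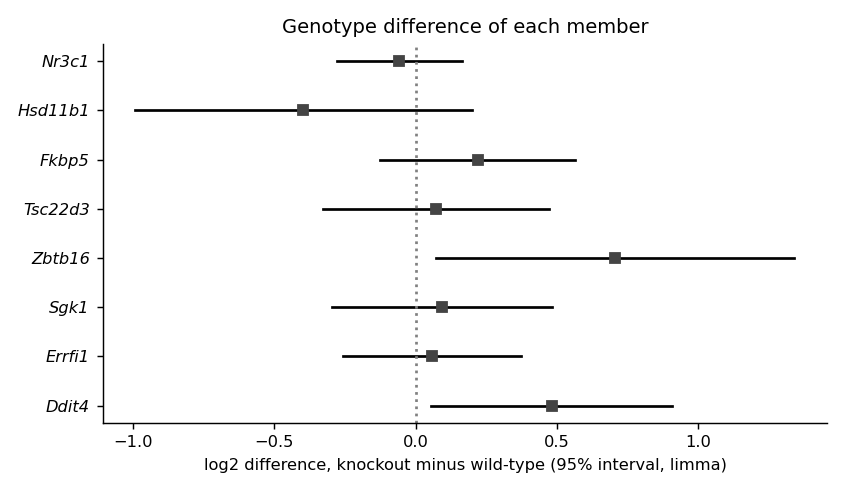
Log2 difference, knockout minus wild-type (x axis), of the 8 members (y axis) as the limma estimate (squares) with its 95% interval (lines), not adjusted for the number of genes. The intervals of Zbtb16 and Ddit4 lie above 0 and those of the other 6 members include 0.

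The members varied more among knockout than among wild-type lungs in 7 of 8 cases, Zbtb16 being the exception. The median SD of all genes was 0.17 in wild-type and 0.19 in knockout lungs. The share of all genes with the larger SD in knockout lungs was not counted, so 7 of 8 has no background beside it. For Ddit4 the SD was 0.13 in wild-type and 0.38 in knockout lungs, but for Sgk1 it was 0.25 and 0.26 and for Fkbp5 0.21 and 0.24 (n = 4 per group).

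Some induced targets tended to be high in the same lungs, but no pair passed after adjustment. Of the 28 pairs of members, 24 correlated positively over the 8 samples, under the 75th-percentile scaling alone. The share of positive pairs among other genes was not counted. Fkbp5 and Zbtb16 had r = 0.84 and rho = 0.57 (exact permutation p = 0.0138 and 0.151), and r = 0.56 without wild-type replicate 3 and knockout replicate 1. Fkbp5 and Tsc22d3 had r = 0.80 and rho = 0.76 (exact permutation p = 0.0175 and 0.0368), and r = 0.61 without the same samples. Adjusted over the 28 pairs, both had an exact p of 0.245 for r, and 0 pairs passed. Tsc22d3 and Sgk1 had r = 0.70 and rho = 0.88 (exact permutation p = 0.0507 and 0.00724, adjusted exact p = 0.282 and 0.203), with r = 0.84 without wild-type replicate 1 and knockout replicate 1. Neither the receptor nor Hsd11b1 went with Fkbp5 (r = 0.08 and -0.11, rho = 0.14 and -0.24, exact permutation p for r = 0.846 and 0.784, adjusted exact p = 0.911 and 0.878). Without knockout replicates 3 and 4 the first r was 0.36, and without wild-type replicate 1 and knockout replicate 4 the second was -0.02.

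**Figure D4:**
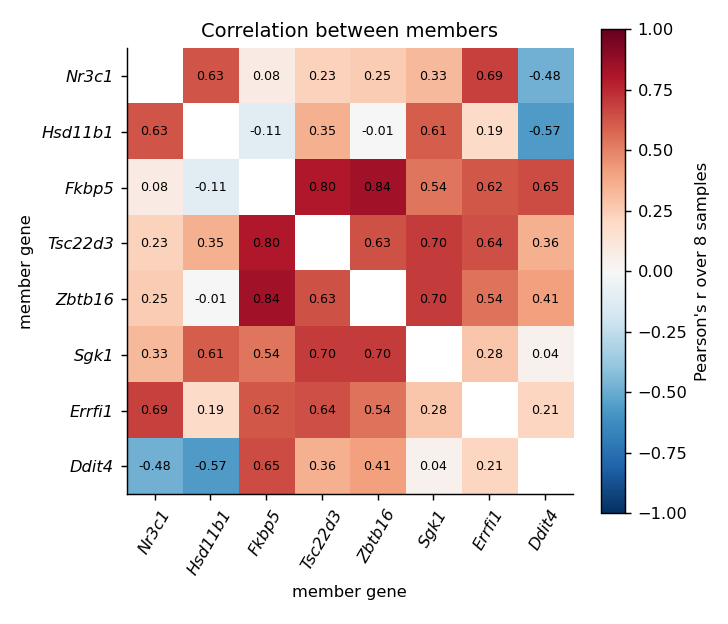
Pearson's r over the 8 lungs for each pair of members, red for positive and blue for negative. Fkbp5 with Zbtb16 (0.84) and with Tsc22d3 (0.80) are the highest pairs, and Hsd11b1 with Ddit4 (-0.57) is the lowest.

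The genes whose levels ran most like each member were picked by Pearson's r over the 8 samples among all genes tested, as a description. Samd8 and Msl3 were most like Fkbp5 (r = 0.99 and 0.97), Aup1 and Kitl most like Hsd11b1 (0.99 and 0.99), Rps14 and Dnase2a most like Zbtb16 (0.99 and 0.99), and Prkch and Ubn1 most like Nr3c1 (0.97 and 0.97). BB163080 and Nrde2 were most like Sgk1 (0.99 and 0.98), Prpf38a and Rpp25l most like Errfi1 (0.96 and 0.95), Slc39a9 and LOC100503726 most like Ddit4 (0.97 and 0.97), and C130074G19Rik and 2810019C22Rik most like Tsc22d3 (0.96 and 0.95). The number of genes with r above 0.9 ran from 23 for Errfi1 to 275 for Hsd11b1, with 164 for Zbtb16 and 58 for Fkbp5. None of these genes was another member. With 24437 genes compared over only 8 samples, high r can also arise by chance, and no chance level was worked out.

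None of the other receptor-induced genes passed. Of 34 listed genes 32 were tested, with 21 differences above 0 and 11 below (19 and 13 with median centring), where 54.4% of all genes were below 0. The median difference was 0.15, or 0.06 with quantile normalization and 0.09 without knockout replicate 3. At an unadjusted p under 0.05 there were 7 higher and 3 lower, against 10.1% and 13.5% of all genes. Sesn1, a stress-induced brake on mTORC1, had the smallest p. It read 1.63, 1.54, 1.39 and 1.40 in wild-type and 1.89, 1.85, 1.96 and 1.86 in knockout lungs, without overlap (0.40 ± 0.080, SE; limma adjusted p = 0.0627). Anxa1, the anti-inflammatory mediator annexin A1, was also apart, at 6.63 ± 0.13 in wild-type and 6.99 ± 0.12 in knockout mice (SD, 4 mice each; limma adjusted p = 0.0875).

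Glul, glutamine synthetase, differed by 0.36 ± 0.10, Fam107a, an actin-binding stress protein, by 0.69 ± 0.24 and Angptl4, an inhibitor of lipoprotein lipase, by 0.30 ± 0.10 (SE; limma adjusted p = 0.102, 0.146 and 0.15). With the cardiac covariate, a setting chosen with earlier results of these data known, 6 of the 32 rose and 3 fell, where 7.12% of all genes passed, 2.85% higher and 4.26% lower. The 6 were Fam107a (1.01 ± 0.14), the transcription factor Klf15 (0.82 ± 0.16), the hypoxia factor Hif3a (0.70 ± 0.14), the kinase Map3k6 (0.63 ± 0.15), Glul (0.47 ± 0.095) and Sesn1 (0.42 ± 0.091, SE). The 3 that fell were the decoy receptor Il1r2 (-1.21 ± 0.21), Nfil3 (-0.76 ± 0.10) and Cebpb (-0.48 ± 0.095, SE). In that fit 0 of the 8 members passed.

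Genes that carry the receptor or set the steroid supply did not pass either. Of 16 chaperones and cofactors tested, 10 were above 0 and 6 below, the reverse with median centring (6 and 10), and the median was 0.04, or -0.02 with median centring and -0.03 with probe means. Fkbp4, the co-chaperone that replaces FKBP5 once hormone binds, was lower in every knockout than in every wild-type lung, at -0.22 ± 0.11 against 0.10 ± 0.16 (SD, 4 mice each; limma adjusted p = 0.123). The corepressor Ncor1 differed by -0.32 ± 0.11 (SE; limma adjusted p = 0.147), with knockout replicate 3 inside the wild-type range. Stip1, which hands clients from HSP70 to HSP90, differed by -0.14 ± 0.082 and the mineralocorticoid receptor Nr3c2 by -0.34 ± 0.27 (SE). Nr3c2 was well above background on only 1 of 4 knockout arrays, and its difference was 0.07 with normexp background correction, so no direction is given.

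Of the 9 genes of steroid metabolism and transport, 6 were tested, 3 above and 3 below 0, with a median of -0.07. The sign of this median turned with normexp background correction (0.000745), with the cardiac covariate (0.07), with no filter on dim probes (0.23, over 9 genes), without wild-type replicate 1 (0.0178) and without knockout replicate 4 (0.0123). Abcb1b, an efflux pump that carries corticosteroids out of cells, read 1.615, 2.036, 2.041 and 1.929 in wild-type and 1.101, 1.276, 1.354 and 1.186 in knockout lungs. The groups were apart, and the difference of -0.68 ± 0.11 stood just outside the threshold (SE; limma adjusted p = 0.0583). It passed with normexp background correction, with no filter on dim probes, with an intensity trend, with array weights and with the cardiac covariate. Hsd11b2, which inactivates corticosterone, differed by 0.53 ± 0.23, H6pd, which supplies NADPH to HSD11B1, by 0.19 ± 0.13, Srd5a1, a steroid reductase, by -0.33 ± 0.19 and Star, the mitochondrial cholesterol carrier, by 0.23 ± 0.11 (SE), none past the threshold. With normexp background correction Srd5a1 differed by -0.15, and with the cardiac covariate by -0.09. Hsd11b2 and Star were dim, with means of -3.96 and -3.68 in wild-type and -3.43 and -3.44 in knockout lungs. Their differences with normexp background correction were 0.35 and 0.15.

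Inflammatory genes that the receptor represses were below 0 in 12 of 12 tested cases, with a median of -0.58 and 0 past the threshold, where 54.4% of all genes were below 0. One of the 12, the cytokine subunit gene Il12b (-0.93 ± 0.75, SE), passed the filter only through the wild-type arrays, which favours a negative difference, and is named after its values were seen. Over the 11 genes well above background on all arrays the median was -0.41, and with normexp background correction it was -0.36. It was -0.37 without wild-type replicate 2 (9 below 0 and 2 above) or replicate 4, -0.87 without wild-type replicate 1 and -0.89 without knockout replicate 2. The list was drawn up with lower inflammatory genes in these samples already known, so its direction is not independent evidence. The endothelial adhesion molecule Sele differed by -1.14 ± 0.34, the chemokine Ccl2 by -0.82 ± 0.34, Tnf by -0.80 ± 0.40, Il1b by -0.74 ± 0.38 and Ptgs2, the inducible cyclooxygenase, by -0.77 ± 0.39 (SE; limma adjusted p = 0.112 to 0.272). Monocyte markers were lower for 8 of 8 genes, with means of 2.82 to 3.15 in wild-type and 1.82 to 2.52 in knockout lungs. Alveolar macrophage markers (7 of 8 lower, 2.43 to 2.90 against 2.001 to 2.24) and neutrophil markers (4 of 6 lower, 5.96 to 6.42 against 5.76 to 5.92) were also apart (exact permutation p = 0.0286 for each of the 3 lists, adjusted exact p = 0.08 over 14 lists). The part of these cells in the differences was not tested. With the cardiac covariate 11 were below 0 and 1 above, the median was -1.15, and Il1b (-1.25 ± 0.24), Tnf (-1.29 ± 0.30) and Nos2 (-1.28 ± 0.15, SE) fell, in a fit that called 4.26% of all genes lower and 7.12% either way.

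**Figure D5:**
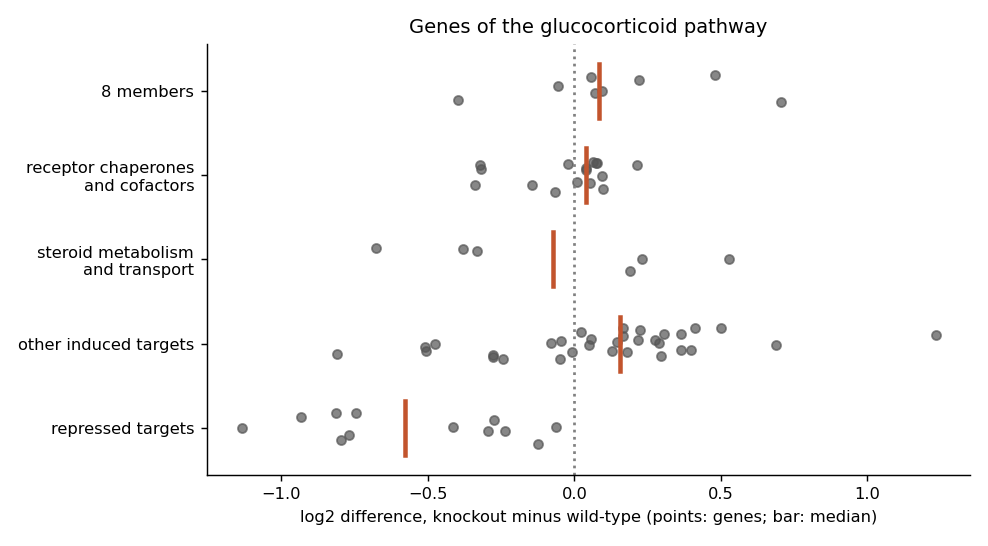
Log2 difference, knockout minus wild-type (x axis), for the genes of each list (grey points, spread vertically for display) with the list median (orange bar). Members sit around 0.08, other induced targets around 0.15 and repressed targets, all below 0, around -0.58.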

How the data were processed

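Whole-lung total RNA was labelled with Cy3 and hybridised to single-colour Agilent arrays, per the labels' protocols. Agilent Feature Extraction 10.7.1.1, named in the submitters' processing notes, produced the deposited intensity values (processed signal, background-subtracted and detrended per the file headers), with probe positions on mm9. The deposited value table holds log2 values with 1 shared distribution (median 5.63 in each column), used as an alternative.

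Control and outlier spots were left out, the spots of each probe averaged, and each array's 75th percentile subtracted from its log2 processed signals. A probe was kept when well above background on at least 3 of 4 arrays of a group, and the brightest probe stood for a gene. No member spot was saturated. Probes were named through RefSeq (GRCm38.p6) by accession (26568), symbol (2606) or synonym (492), otherwise as in the files (25994). The genotype test was limma's moderated test (version 3.58.1, R 4.3.3), two-sided, with Benjamini-Hochberg adjustment and a threshold of 0.05, tested on simulated data. There it recovered 18% of 50 genes changed by 0.5 log2 units and 74% of 50 changed by 1, with 12 false calls. Differences of the size seen in the members could thus often be missed. Correlations and marker means used two-sided exact permutation, for which 4 against 4 samples cannot go below 0.0286. The number of arrays limits the precision.

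The members and lists were chosen with earlier results of these data known. Named are all members, genes past the threshold, otherwise up to 5 genes per list by p, and the 2 genes most like each member. Hif3a, Klf15, Map3k6, Il1r2, Nfil3, Cebpb and Nos2, called with the cardiac covariate, were named after their values were seen. A block for the slide was not possible with 1 slide. A gene that this rule would name is not reported here.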

Additional observations from a re-analysis of the deposited data

Results flagged for a closer look

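In 84 groups of 4 samples, 4 held a sample whose gap to its nearest neighbour took up more than the critical share of the group's range, and chance alone flags about 1 in 20. Wild-type replicate 2 was high for Ddit4, at 4.04 against 3.76 to 3.79 in the other wild-type lungs. Wild-type replicate 2 was low for Fam107a, at -0.63. Knockout replicate 1 was high for Fkbp4, at -0.059. Wild-type replicate 1 was low for Sele, at -0.76.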

How the results depend on the processing

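None of the 8 members passed the threshold in any of 19 alternatives. The differences ran from 0.51 to 0.98 for Zbtb16, 0.35 to 0.61 for Ddit4, 0.13 to 0.32 for Fkbp5 and -0.63 to -0.06 for Hsd11b1, each with 1 sign throughout. Nr3c1 turned to 0.0048 with quantile normalization, 0.0055 in the deposited value table and 0.039 with the mean of its probes. Leaving out 1 sample at a time gave -0.121 to 0.0104 for Nr3c1, -0.0691 to 0.190 for Tsc22d3, -0.0220 to 0.218 for Sgk1 and -0.0476 to 0.142 for Errfi1. The cause of these turns was not tested. Over all genes, 8 higher and 7 lower became 229 and 284 with normexp, 13 and 23 with median centring, 2710 and 786 with no filter, 59 and 68 with the filter on all 8 arrays, 160 and 258 with an intensity trend, 160 and 190 with array weights, 697 and 1042 with the cardiac covariate and 4 and 5 with probe means. Leaving out 1 sample gave 1 to 14 higher and 0 to 15 lower. With the replicate block, 12 were higher and 34 lower. Same-numbered samples deviated together with r of 0.13, 0.47, 0.0076 and -0.29. The highest r of each wild-type lung with a differently numbered knockout lung was 0.27, 0.29, 0.046 and 0.24. Only for replicate 2 was the same-numbered r the higher. These values give no consistent pairing by number but cannot exclude one. Steroid metabolism and transport gave 1 gene lower (Abcb1b) with normexp, no filter, the trend, array weights and the cardiac covariate, and 1 higher with no filter. Other induced targets gave 1 higher with the first 4 of these and 6 higher and 3 lower with the covariate, and repressed targets 3 lower with the covariate.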

Other observations

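Ddit4 was high where lymphocyte and monocyte markers were low. Over the 8 samples it correlated with the lymphocyte marker mean at r = -0.91 and rho = -0.74 (exact permutation p = 0.00494 and 0.0458) and with the monocyte mean at r = -0.83 and rho = -0.74 (exact permutation p = 0.00704 and 0.0458). Neither passed after adjustment over 112 relations (adjusted exact p = 0.158 for r and 0.339 for rho in both), and without knockout replicates 1 and 4 r was -0.49 and -0.45. Hsd11b1 also went with alveolar type 2 markers (r = 0.88, rho = 0.74, exact permutation p = 0.0061 and 0.0458, adjusted exact p = 0.158 and 0.339, r = 0.60 without knockout replicates 2 and 4). Its r was -0.85 with adipocyte and 0.85 with endothelial markers, and its rho -0.81 and 0.76 (adjusted exact p = 0.199 for r and 0.339 for rho in both). Without the 2 samples farthest from each marker median these r were -0.97 and 0.89. With smooth muscle, club and ciliated markers Hsd11b1 had r of -0.64, -0.62 and -0.57, and rho of -0.57, -0.74 and -0.57. None of these passed (adjusted exact p = 0.451, 0.470 and 0.470 for r). Without the 2 samples farthest from each marker median these r were 0.39, -0.71 and -0.41. With alveolar macrophage, lymphocyte, monocyte, neutrophil, thymus and fibroblast markers Hsd11b1 had r of 0.43, 0.43, 0.38, 0.19, 0.16 and 0.12.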
